A study of Mus musculus with 31 samples.

Results

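Food-grade titanium dioxide (E171) was given by gavage to BALB/c mice with chemically induced colorectal cancer (CRC), and the colon transcriptome after 7 days of gavage was set here against that after 2 days. The comparison rests on 8 of the 31 arrays of the series, chosen by their labels alone. They are 4 arrays of CRC + E171 mice at 7 days and 4 at 2 days, each with 2 males and 2 females. Every mouse of both groups was 4 to 6 weeks old when the study began. Each had one injection of the DNA-alkylating carcinogen azoxymethane (AOM) a week before the first gavage. Each also drank 2% dextran sodium sulphate (DSS), which injures the colon epithelium, during the first 5 days of the experiment. The 5 mg/kg bw/day of E171 was given 5 days per week in water. The 2 day mice were therefore sampled while they drank DSS and the 7 day mice after it had been withdrawn, so days of E171 and stage of the DSS injury cannot be told apart within these 8 arrays. CRC mice carried the same AOM and DSS with gavage of sterile water, and their 8 arrays at 2 and 7 days served as the comparison. The study's methods give 2 males and 2 females sampled per group and day, which leaves one mouse per array.

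DSS strips the surface epithelium of the colon within days, and neutrophils drawn by chemokines then fill the lamina propria while crypt stem cells rebuild the lining. The mature colonocytes that take up salt and water and the goblet cells that secrete mucus are the cells lost first. Azoxymethane methylates DNA in the crypts, which brings in repair enzymes and p53 target genes. Expression in the gut also follows a daily rhythm, in which BMAL1 and CLOCK bind E-boxes and drive Per, Dbp and Nr1d1, whose products feed back on them.

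Levels are log2 processed signals minus the 75th percentile of the same array, so 0 is a bright probe, a difference of 1 is a doubling of signal and levels are compared between arrays for one gene at a time. Values of 4 arrays are given in the order male 1, male 2, female 1, female 2. A log2 fold change is the 7 day mean minus the 2 day mean, with its standard error (SE) from limma. A differentially expressed gene (DEG) had a fold change of at least 1.5 and an unadjusted p-value under 0.05.

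Sex-linked transcripts matched the label of all 8 arrays, and pairwise correlations over genes lay between 0.92 and 0.985. Spots well above background made up 71.2 to 77.8% at 2 days and 69.6 to 78.9% at 7 days. Single arrays nevertheless stood far above or below the other arrays of their group in some genes.

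Female 2 at 7 days stood far below the other arrays in 4 posterior Hox genes, Hoxb13, Hoxd13, Hoxd12 and Hoxa13. Hoxb13, a homeobox gene that marks the hindmost gut, stood at 5.63, 6.11, 5.91 and 5.52 at 2 days and at 5.7, 5.14, 5.68 and -8.41 at 7 days. Hoxd13 was likewise at -8.19 on that array and between -0.62 and 2.79 on the other 7, Hoxd12 at -8.36 against -4.71 to 0.07, and Hoxa13 at -3.57 against 0.16 to 0.87. The more anterior Hoxb6 was at 2.64 and Hoxb7 at 2.6 there, against at most -0.39 elsewhere among the 8 arrays. Nts, the neurotensin gene, was at 2.77 against at most -5.22. A score is the median over a list of each gene's level minus its mean over all 31 arrays. For the 9 posterior Hox genes it was 0.08, 1.58, 1.65 and -0.15 at 2 days and 0.57, -0.9, 0.04 and -1.49 at 7 days, with overlapping days. The list had 8 of 9 lower means at 7 days, 0 DEG and a median log2 fold change of -0.98, which was -0.68 without both female 2 arrays, -1.69 within the third scan day and between -1.51 and -0.45 on leaving out single arrays. Not every posterior gene was low, with Hoxa11 at -0.33 against -1.25 to -0.3 on the other 7 arrays, while Hoxa10 was at -0.92 against 0.4 to 1.04. Some of the hindmost Hox genes of the distal colon, the tissue that the study's methods name, were thus far lower on 1 of the 8 arrays.

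Female 2 at 2 days carried pancreatic transcripts. Prss2, a trypsinogen of pancreatic acinar cells, was at -5.21, -5.22, -5.12 and 8.04 at 2 days and between -6.17 and -5.49 at 7 days. Over the 19 acinar genes the score was 9.7 on this array and between -1.99 and -0.79 on the other 7. Male 2 at 2 days carried squamous epithelium genes, with Krt5, a basal keratin, at 0.71 against at most -2.82 on the others. Female 1 at 7 days was high in liver transcripts, with Alb, the albumin gene, at 2.12 against at most -0.72. Male 2 at 7 days was high in neutrophil genes, with S100a8, a calprotectin subunit, at 0.83 against -4.84 to -1.86 elsewhere. The part of these signals in any gene's change was not tested, and where a call was lost without female 2 at either day this is said beside the gene.

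**Figure D1:**
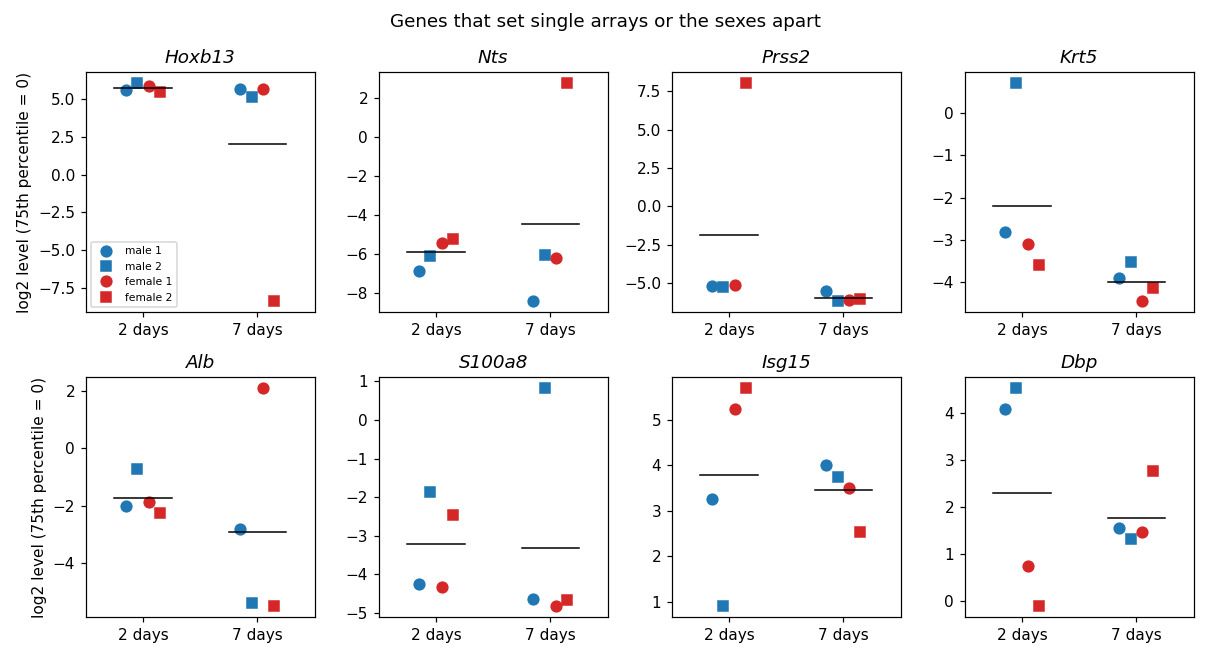
Levels of 8 genes on each array (log2, 75th percentile at 0) at 2 and 7 days, with males in blue, females in red, replicate 1 as circles, replicate 2 as squares and group means as lines. Hoxb13 is at -8.41 on 1 of the 7 day arrays, Prss2 at 8.04 on 1 of the 2 day arrays, and Isg15 and Dbp separate the sexes at 2 days.

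Across 19797 genes, limma found 0 genes (0%) with an adjusted p-value under 0.05 between 7 and 2 days of CRC + E171. The unadjusted threshold alone was passed by 806 genes. The DEG thresholds were passed by 644 genes (3.25%), of which 87 (0.439%) were higher at 7 days and 557 (2.81%) lower. In 1140 of the 19778 genes measured on all 8 arrays (5.76%) the arrays of both days did not overlap. The median log2 fold change over all genes was -0.04. The direction of the DEG moved with scaling, since quantile normalization gave 185 higher and 531 lower. No slide held both days, and the scan days overlapped only in the replicate 2 arrays, all scanned on the third day. With scan day as a term the DEG were 207 higher and 258 lower, and within the third scan day, 2 arrays against 2, they were 258 higher and 697 lower.

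Most of the 557 lower genes were dim. When the genes were split into 5 equal bins by their mean level on the 8 arrays, 352 of the lower DEG lay in the dimmest bin and 149 in the next. By contrast, 9 and 18 of them lay in the brightest pair of bins. The median level was -4.89 for lower DEG and -3.8 for higher DEG, against -1.8 over all genes. Of the lower DEG, 57 were not well above background on any 7 day array, so their change is known only as a bound.

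**Figure D2:**
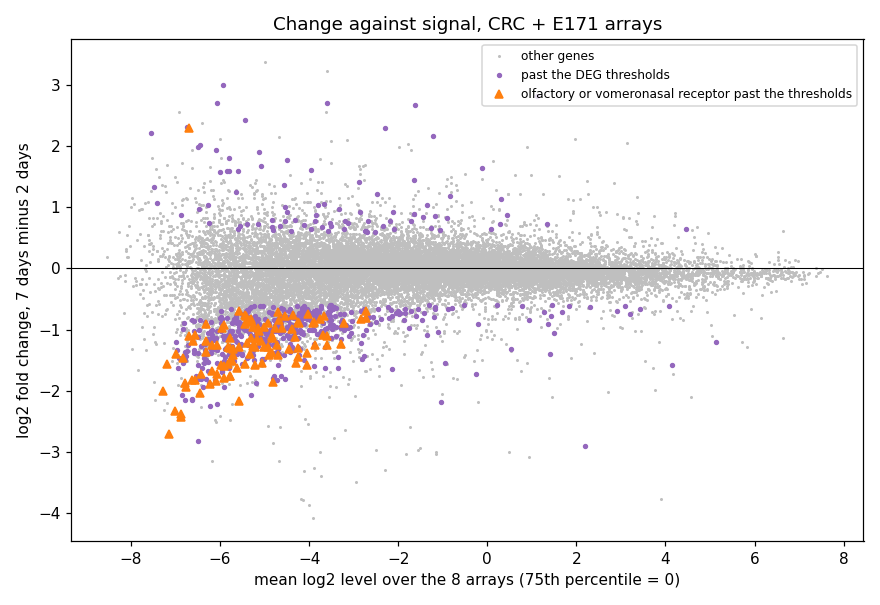
Log2 fold change (7 days minus 2 days, CRC + E171) of each gene against its mean log2 level over the 8 arrays, with genes past the DEG thresholds in purple and olfactory or vomeronasal receptors among them as orange triangles. Lower DEG gather at levels below -3, and the median level over all genes is -1.8.

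Odorant receptor genes made up 16.3% of the lower DEG and 2.08% of all genes tested. Olfactory receptors, the G protein-coupled receptors of the nose that many tissues transcribe at a trace, counted 91 lower and 1 higher DEG among 411 tested. Their median log2 fold change was -0.62, against -0.04 over all genes. Among 83 vomeronasal receptors, which sense pheromones, 15 were lower DEG and 0 higher, with a median of -0.73. Of 12 taste receptors 10 had a lower mean at 7 days, with 1 DEG and a median of -0.61.

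The receptor scores separated the days. Olfactory receptor scores were 0.43, 0.5, 0.28 and 0.77 at 2 days and 0.15, -0.33, -0.24 and 0.01 at 7 days, with no overlap between days. The receptor medians also lay below those of other genes in the dimmest bins, which was not tested. In the dimmest bin the median was -0.69 over 371 olfactory and vomeronasal receptors and -0.15 over the other genes, and 22.1% against 7.52% were lower DEG. In the next bin it was -0.64 over 100 receptors and -0.01 over the others. Background correction with normexp brought the olfactory median to -0.25 with the same sign. Within the third scan day it was -0.75. CRC mice had an olfactory receptor median of 0.02 between the same days, with 11 higher and 8 lower DEG. CRC arrays were far apart in this score. They stood at -0.26, 0.31, -0.35 and 0.49 at 2 days and at 0.01, -0.14, -0.26 and 0.66 at 7 days. At 2 days the low CRC pair was replicate 1, scanned on the first day, and the high pair replicate 2, scanned on the second. CRC replicates kept these scan days at 7 days. CRC + E171 replicate 1 arrays were scanned on the second day at 2 days and on the first at 7 days. The part of scan day in the receptor scores was not tested. Receptors of these families have close relatives, so a probe may read more than its own gene.

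Among genes well above background on all 4 arrays of at least one day, with arrays that did not overlap, 10 of the largest increases and 12 of the largest decreases are described here. Each had an adjusted p-value that rounds to 1 by limma. Since the choice required days without overlap, the separation of the days in them is a description.

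Klrh1, a lectin-like receptor of natural killer cells, stood at -6.75, -8.2, -6.53 and -8.27 at 2 days and at -4.73, -4.71, -4.87 and -3.46 at 7 days. All 4 later arrays were brighter, although the probe was well above background on 1 of the 4 earlier ones. The log2 fold change was 3 (SE 0.92). Its probe spans chr6:129716798-129718166 of the mm9 build. Il10, the cytokine that restrains intestinal inflammation, stood at -6.62, -8.08, -6.15 and -5.97 and then at -5.4, -5.51, -5.25 and -3.46. Again the probe, at chr1:132920943-132921002, was well above background on 1 of 4 arrays at 2 days and on 4 of 4 at 7 days. The log2 fold change of Il10 was 1.8 (SE 0.56). Both genes passed the DEG thresholds under all 23 alternative settings, but the size moved with the processing. It ranged from 1.13 with normexp to 4.15 within the third scan day for Klrh1, and from 0.72 to 2.54 under the same settings for Il10.

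Adra2a, the alpha-2A adrenergic receptor, was at -1.92, -2.02, -2.6 and -2.64 at 2 days and at -1.32, -0.33, -1.31 and 2.47 at 7 days, a log2 fold change of 2.17 (SE 0.82). Much of that change lay on female 2 at 7 days, the array low in Hoxb13, and without it the thresholds were not passed. Lpl, the lipoprotein lipase that frees fatty acids for uptake, was at -1.92, -3.07, -2.83 and -1.67 and then at -1.15, -1.57, -1.26 and 0.29. Its log2 fold change of 1.45 (SE 0.68) did not pass without either female 2 at 7 days or any of 3 other arrays.

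Kit, the stem cell factor receptor of mast cells and of the pacemaker cells of gut muscle, was at -1.73, -2.39, -1.96 and -2.26 at 2 days and at -1.15, -1.7, -1.65 and -0.29 at 7 days. Its log2 fold change was 0.89 (SE 0.4), and the groups were separated by a narrow gap. Slc18a2, the vesicular transporter that loads monoamines, was at -2.71, -2.46, -2.57 and -2.54 and then at -2.46, -1.33, -1.82 and -1.55, with a gap between days that rounding hides and a log2 fold change of 0.78 (SE 0.33). The other members were Trim2, a ubiquitin ligase, at 1.03, P2rx6, a subunit of ATP-gated channels, at 0.92, and Gprasp2, a sorting protein of G protein-coupled receptors, at 0.86. Phactr3, a regulator of phosphatase and actin, was at 0.77. Without female 2 at 7 days, 8 of these 10 lost the DEG call, namely Adra2a, Lpl, Trim2, P2rx6, Kit, Gprasp2, Slc18a2 and Phactr3. Without female 2 at 2 days, the array with pancreatic transcripts, P2rx6, Kit, Gprasp2 and Phactr3 lost it as well.

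Lrcol1 stood at -5.14, -5.21, -4.67 and -5.34 at 2 days and at -7.88, -7.38, -7.76 and -6.36 at 7 days. Its probe was well above background on all 4 earlier arrays and on none of the later ones, so it was at least 2.37-fold lower. Hoatz, a gene of motile cilia, was at -5.72, -5.68, -5.72 and -5 and then at -8.25, -7.44, -7.13 and -6.56, at least 1.75-fold lower by the same bound. That bound divides the 2 day mean by the lowest signals measurable at 7 days. Both bounds hold for the main processing only. Over the alternative settings the log2 fold change was as small as -0.69 for Lrcol1 and -0.47 for Hoatz.

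Esrrb is an orphan nuclear receptor. Its levels were -3.76, -3.42, -1.42 and -1.53 at 2 days and -3.93, -4.09, -4.61 and -3.97 at 7 days, so the 2 day females stood above the 2 day males. The log2 fold change was -1.62 (SE 0.47), and it passed the DEG thresholds under all 23 alternative settings, at -2.03 to -0.88. Phlda2, an imprinted growth regulator, was at -4.32, -2.62, -4.21 and -4.11 and then at -5.07, -4.35, -5.04 and -8.1, a log2 fold change of -1.83 (SE 0.75). Its lowest value was on female 2 at 7 days and its highest on male 2 at 2 days, and without either array the call was lost.

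Ftmt, the mitochondrial ferritin, had a log2 fold change of -1.91 and was well above background on 1 of 4 arrays at 7 days. Atp6v1g3, a proton pump subunit, was at -1.69 with the same count of arrays. Lnp1 was at -1.8, the antisense transcript Galnt6os at -1.75 and Scgb1b27, a secretoglobin, at -1.5, and in each of these 3 genes female 2 at 2 days was the highest array, without which the call was lost. Wfdc9 was at -1.62, the antisense transcript Itpr3os at -1.58 and Hormad2, a gene of meiotic chromosomes, at -1.52. The Hormad2 call was lost without female 2 at 2 days and without male 1 or female 1 at 7 days. With normexp Hoatz, Atp6v1g3, Wfdc9 and Hormad2 lost the call. With scan day as a term Wfdc9, Hormad2 and Galnt6os lost it. Within the third scan day, 2 arrays against 2, Lrcol1, Ftmt, Hoatz, Lnp1, Wfdc9, Itpr3os and Hormad2 did. In CRC mice at 2 days, replicate 1 was scanned on the first day and replicate 2 on the second. There Itpr3os was at -6.06, -3.79, -5.96 and -3.65, Hormad2 at -7.39, -4.99, -7.38 and -4.64, and Lnp1 at -6.01, -4.2, -6.13 and -4. Replicate 2 was the higher pair in these genes, though not in Esrrb or Phlda2. The part of scan day was not tested beyond these fits.

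**Figure D3:**
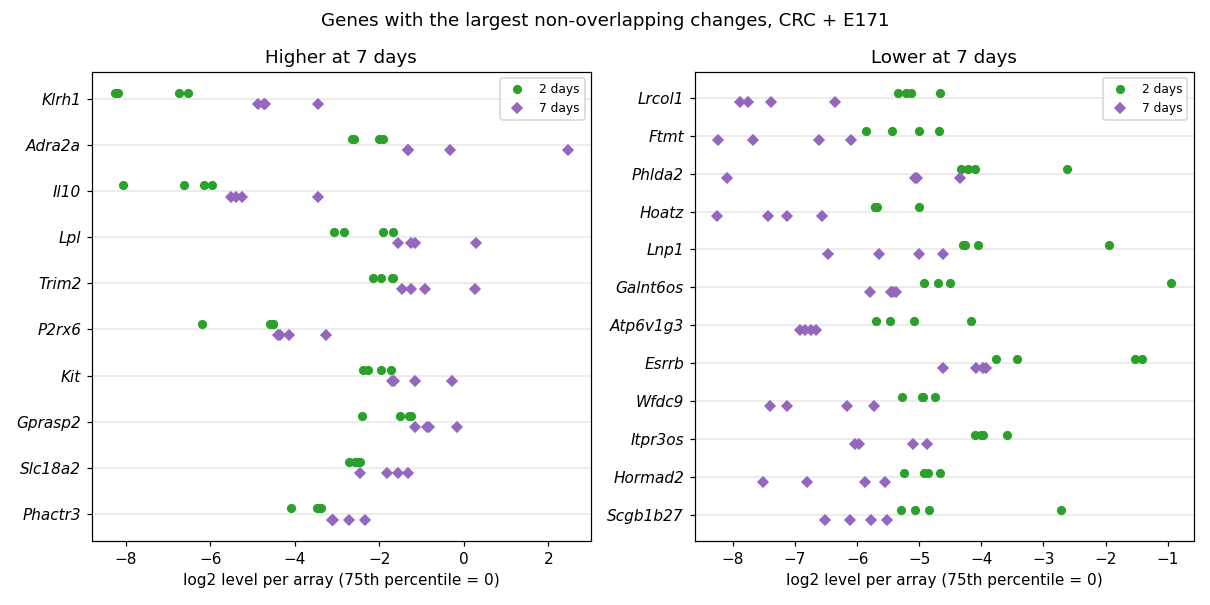
Level of 22 named genes on each array (log2, 75th percentile at 0), with 2 day arrays as green circles and 7 day arrays as purple diamonds. Days do not overlap in any of them, and for Adra2a the array at 2.47 lies apart from the other 3 at 7 days.

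The gene lists below describe the injury, the epithelium and the metabolism of the colon, and each is set beside the all-gene median of -0.04 and the 3.25% of all genes that were DEG. None of the lists held a gene with an adjusted p-value under 0.05 in the comparison of days with E171.

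The neutrophil list had 1 lower DEG among 19 genes and a median log2 fold change of -0.17, which was -0.68 without male 2 at 7 days. S100a8 was at -4.25, -1.86, -4.33 and -2.47 at 2 days and at -4.65, 0.83, -4.84 and -4.67 at 7 days. All the later arrays but male 2 lay below every 2 day array and male 2 above them all, so the fold change was -0.1 (SE 2.21). Its partner S100a9 followed the same order, with 2.93 on male 2 at 7 days. Ly6g, the neutrophil surface antigen, was the DEG, at 3.79, 3.29, 3.42 and 3.21 and then at 2.86, 2.62 and -3.91 on male 1, female 1 and female 2. Male 2 at 7 days was left out of this gene's fit because its spot was marked as an outlier, and the call was lost without female 2. The Ly6g probe did not follow S100a8 in CRC males. There Ly6g was at 4.05 and 2.75 at 2 days and at 0.46 and 2.21 at 7 days. S100a8 was at -3.55 and -1.95 and then at 6.84 and 5.52 on the same arrays.

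Chemokine ligands had 0 DEG among 29 genes and a median of -0.28. That median was -0.15 to 0.02 over 6 alternatives of the processing, above 0 with normexp and with the stricter filter, 0.11 without female 2 at 2 days and 0.27 without both female 2 arrays. Interleukins and cytokines had 2 DEG among 32, Il10 above and Il17f. Il17f, a cytokine of type 17 lymphocytes that guards the mucosa, was at -5.08, -5.05, -5.3 and -4.61 at 2 days and at -6.07, -6.19, -6.59 and -6.03 at 7 days. The days did not overlap, with a log2 fold change of -1.21 (SE 0.56), but the probe was well above background on 1 of the 4 later arrays. Its call was lost on leaving out any of 7 single arrays. Slpi, a protease inhibitor of mucosal secretions, was the only DEG among 24 mucosal defence genes. It was at 0.98, 1.75, 0.82 and 1.23 and then at -0.22, 1.08, -0.36 and -0.96, lower on 3 of 4 arrays, with a log2 fold change of -1.31 (SE 0.56) and a call that was lost without female 2 at 7 days.

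The antimicrobial lectins split the arrays rather than the days. Reg3b stood at -4.36, -5.98, -7.81 and 3.6 at 2 days and at -8.3, 1.45, -7.89 and 6.4 at 7 days. Its log2 fold change was 1.55 (SE 3.35), and Reg3g, at 1.98 (SE 2.25), was high on the same 3 arrays, female 2 at both days and male 2 at 7 days.

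Epithelial lists had medians near that of all genes, over members that lay on both sides. In bulk colon, fewer cells of a type and less RNA per cell cannot be told apart. The 28 genes of colonocyte absorption had a median of -0.04 (range -1.5 to 3.38) with 0 DEG, and the 24 goblet cell genes 0.19 (range -1.11 to 1.42) with 0 DEG. Car1, the carbonic anhydrase of surface colonocytes, was at 4.89, 5.58, 3.82 and 3.24 at 2 days and at 4.14, 5.2, 3.29 and 6.97 at 7 days. Tff3, a peptide that goblet cells secrete with mucus, was at 6.95, 6.76, 6.74 and 6.41 and then at 7, 7.1, 6.55 and 6.66. In both genes the days overlapped, and the lowest Car1 level of the 8 arrays was 3.24. Muc2, the main secreted mucin, had a log2 fold change of 0.71 (SE 1.06), with its highest level of 6.31 on female 2 at 7 days. The 12 pan-epithelial markers had a median of -0.15 and 0 DEG.

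Endocrine and nerve genes had mostly higher means at 7 days. Of 24 enteroendocrine genes 18 had a higher mean at 7 days, with a median of 0.42 and 0 DEG. Chga and Chgb, the granins of hormone granules, had log2 fold changes of 0.72 (SE 0.76) and 0.67 (SE 0.73). In the enteric neuron and glia markers 14 of 15 means were higher, with a median of 0.35 and 2 DEG, Nos1 among them. Nos1, the neuronal nitric oxide synthase of inhibitory motor neurons, was at -5.14, -5.76, -5.51 and -5.59 and then at -5.09, -4.27, -5.21 and -4.54, a log2 fold change of 0.72 (SE 0.3) with its highest levels on both replicate 2 arrays at 7 days. Its call was lost without either of them, at 0.55 without male 2 and 0.64 without female 2. The Nos1 call was also lost without male 2 at 2 days (0.63), with normexp (0.37) and with array weights (0.47). Without both female 2 arrays the medians of both lists became 0.17 and 0.08.

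Lipid and ester metabolism genes were highest on a single array. The list of 30 fatty acid and ketone genes had 27 higher means, 1 DEG and a median of 0.28, which was -0.09 without both female 2 arrays. The carboxylesterases Ces1f and Ces1d, which cleave ester drugs and lipids, had log2 fold changes of 2.68 (SE 1.1) and 1.64 (SE 0.76). Ces1f was at -2.04, -3.65, -3.39 and -2.79 and then at -0.97, -3.24, -0.34 and 3.37. Both were highest on female 2 at 7 days, and both calls were lost without it. The Ces1d call was also lost without female 2 at 2 days or any of 3 other arrays. The list of phase II enzymes and esterases had a median of 0.32, or -0.16 without both female 2 arrays. Cytochrome P450 genes had a median of 0.1 and 0 DEG among 43. Their median was between 0.01 and 0.26 on leaving out single arrays and -0.16 within the third scan day.

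Every member of the cholesterol synthesis list had a lower mean at 7 days. All 24 genes of the pathway and its SREBP2 control had a lower mean at 7 days, against 56% of all genes, with a median of -0.45. Pmvk, phosphomevalonate kinase, was at 3.5, 2.7, 3.48 and 3.34 at 2 days and at 2.51, 2.5, 2.54 and 2.66 at 7 days. No later array reached the lowest earlier one, and the 4 later arrays were within 0.16 of each other. The log2 fold change was -0.7 (SE 0.23). Sqle, the squalene epoxidase, was at -0.7, -1.31, -0.95 and -1.11 and then at -1.7, -1.59, -1.66 and -1.51, a log2 fold change of -0.6 (SE 0.23), also without overlap. Both were DEG, 2 of 24, and the Sqle call was lost on leaving out any of 4 single arrays, both male 1 and both female 1. It was also lost with quantile normalization, normexp, the authors' values, the brightest probe, scan day as a term and within the third scan day, where Pmvk lost its call too. Hmgcs1, which starts the pathway, was at 2.67, 2.07, 2.17 and 1.59 and then at 2.38, 1.61, 1.82 and 0.85, a log2 fold change of -0.46 (SE 0.4) with overlapping days.

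In the pathway as a whole 5 of 24 genes had days that did not overlap, against 5.76% of all genes, and the median lay between -0.51 and -0.29 whichever array was left out, at -0.43 without both female 2 arrays and at -0.35 within the third scan day. CRC mice had 22 of 24 lower means and a median of -0.42 between the same days. That CRC median was -0.74 in males and -0.08 in females, against -0.43 and -0.4 with E171, and the test of the difference had 0 of the 24 genes under an unadjusted p-value of 0.05. SREBP2 binds sterol regulatory elements, and one form of them, TCACNCCAC on either strand, was searched in RefSeq promoters (300 bases ending shortly after the start, GRCm38.p6). It was present in 1 of the 16 members with a promoter sequence and in 1.44% of 27025 genes. The promoter that holds it is shown 5′ to 3′ with the match in capitals, at chr13:119690101-119690400 on the plus strand.
Hmgcs1: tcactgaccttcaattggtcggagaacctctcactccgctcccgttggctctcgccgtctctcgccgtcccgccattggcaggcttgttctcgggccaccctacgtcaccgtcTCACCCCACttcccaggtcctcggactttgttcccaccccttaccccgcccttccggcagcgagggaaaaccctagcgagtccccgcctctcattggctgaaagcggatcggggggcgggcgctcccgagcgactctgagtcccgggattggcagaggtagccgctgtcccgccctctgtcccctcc

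Among clock genes 2 repressors were DEG. Per1, a repressor of the core clock, was at -1.95, -1.36, -1.84 and -2.03 at 2 days and at -3.02, -2.59, -2.84 and -1.95 at 7 days. All the later arrays but female 2 lay below the earlier ones, and the log2 fold change was -0.81 (SE 0.25). Bhlhe41, which represses E-box genes, was at -5.39, -5.31, -4.82 and -4.65 and then at -7.2, -6.09, -5.93 and -6.2, without overlap. Its log2 fold change was -1.31 (SE 0.37), with the probe well above background on 1 of the 4 later arrays. Of 14 genes of the evening phase 12 had lower means, with a median of -0.44 and 2 DEG. That median was -0.92 without both female 2 arrays and between -0.7, without female 2 at 7 days, and -0.09, without male 2 at 7 days. It was -1.34 in males and 0.53 in females. The Per1 call was lost with normexp, with the brightest probe and within the third scan day, and the Bhlhe41 call with normexp.

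The E-box CACGTG, a palindrome that reads the same on both strands, was present in the RefSeq promoters of 4 of the 11 evening genes with a sequence and in 8.09% of 27025 genes. Promoters of both DEG and of Ciart, whose product is a further clock repressor, are shown because they carry it, with E-boxes in capitals. They lie at chr11:69098699-69098998 on the plus strand (Per1), chr6:145865371-145865670 on the minus strand (Bhlhe41) and chr3:95882179-95882478 on the minus strand (Ciart), all in GRCm38.p6.
Per1: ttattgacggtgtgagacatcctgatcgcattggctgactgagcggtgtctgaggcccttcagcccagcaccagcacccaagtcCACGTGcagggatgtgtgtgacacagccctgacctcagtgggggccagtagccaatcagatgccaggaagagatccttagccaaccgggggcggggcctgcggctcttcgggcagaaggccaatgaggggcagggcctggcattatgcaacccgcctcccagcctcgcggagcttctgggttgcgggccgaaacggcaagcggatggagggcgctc
Bhlhe41: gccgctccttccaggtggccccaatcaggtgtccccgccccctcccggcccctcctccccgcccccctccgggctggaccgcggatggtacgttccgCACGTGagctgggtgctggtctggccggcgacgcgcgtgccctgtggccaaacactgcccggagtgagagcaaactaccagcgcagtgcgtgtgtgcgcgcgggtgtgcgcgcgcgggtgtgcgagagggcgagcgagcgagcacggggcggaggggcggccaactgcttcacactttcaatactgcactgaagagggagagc
Ciart: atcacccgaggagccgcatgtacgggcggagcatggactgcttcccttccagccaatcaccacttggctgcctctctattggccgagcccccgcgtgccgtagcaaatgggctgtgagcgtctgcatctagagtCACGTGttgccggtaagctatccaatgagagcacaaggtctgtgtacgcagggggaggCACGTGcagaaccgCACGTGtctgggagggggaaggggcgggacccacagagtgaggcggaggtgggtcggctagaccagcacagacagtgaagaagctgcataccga
The Ciart promoter holds 3 E-boxes. A match describes the letters of the window and is not a measured binding site. Ciart itself was at -4.15, -2.88, -6.51 and -5.17 and then at -5.96, -6.6, -6.19 and -5.15, with a log2 fold change of -1.3 (SE 0.73) and no DEG call. Its 2 day males were the highest of the 8 arrays.

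DNA damage and growth genes held few DEG. Cdkn1a, the p53 target that halts the cell cycle, was at -1.63, -1.28, -1.51 and -1.62 at 2 days and at -1.71, -2.4, -2.14 and -2.44 at 7 days. All later arrays lay below the earlier ones, with a log2 fold change of -0.66 (SE 0.21), the only DEG among 29 genes of p53 response and alkylation repair, with a call that was lost without female 2 at 7 days. Mdm2, another p53 target, was at 0 (SE 0.15). Proliferation genes had 25 of 30 lower means, a median of -0.18 and 0 DEG, and the median was 0.14 without both female 2 arrays. It was 0.53 in males and -0.94 in females, with an unadjusted p-value under 0.05 for the sex difference in 9 of 30 genes, against 3.3% of all genes. In the immediate early list, 2 of 27 genes were DEG. Ccn2, a matricellular growth factor, was at 1.38, 2.88, 2.14 and 1.75 and then at 1.35, 0.42, 1.76 and 0.38, a log2 fold change of -1.06 (SE 0.43). Dusp5, a phosphatase that switches off ERK, was at -0.63 (SE 0.24) without overlap between days. Both calls were lost without female 2 at 7 days. Ptger3, a receptor for prostaglandin E2, was the DEG among 24 prostaglandin genes, at -0.85 (SE 0.37) and without overlap. Its call was lost without both female 2 arrays, without any of 3 single arrays (female 2 and male 2 at 2 days, male 2 at 7 days) and with scan day as a term, array weights or the brightest probe.

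**Figure D4:**
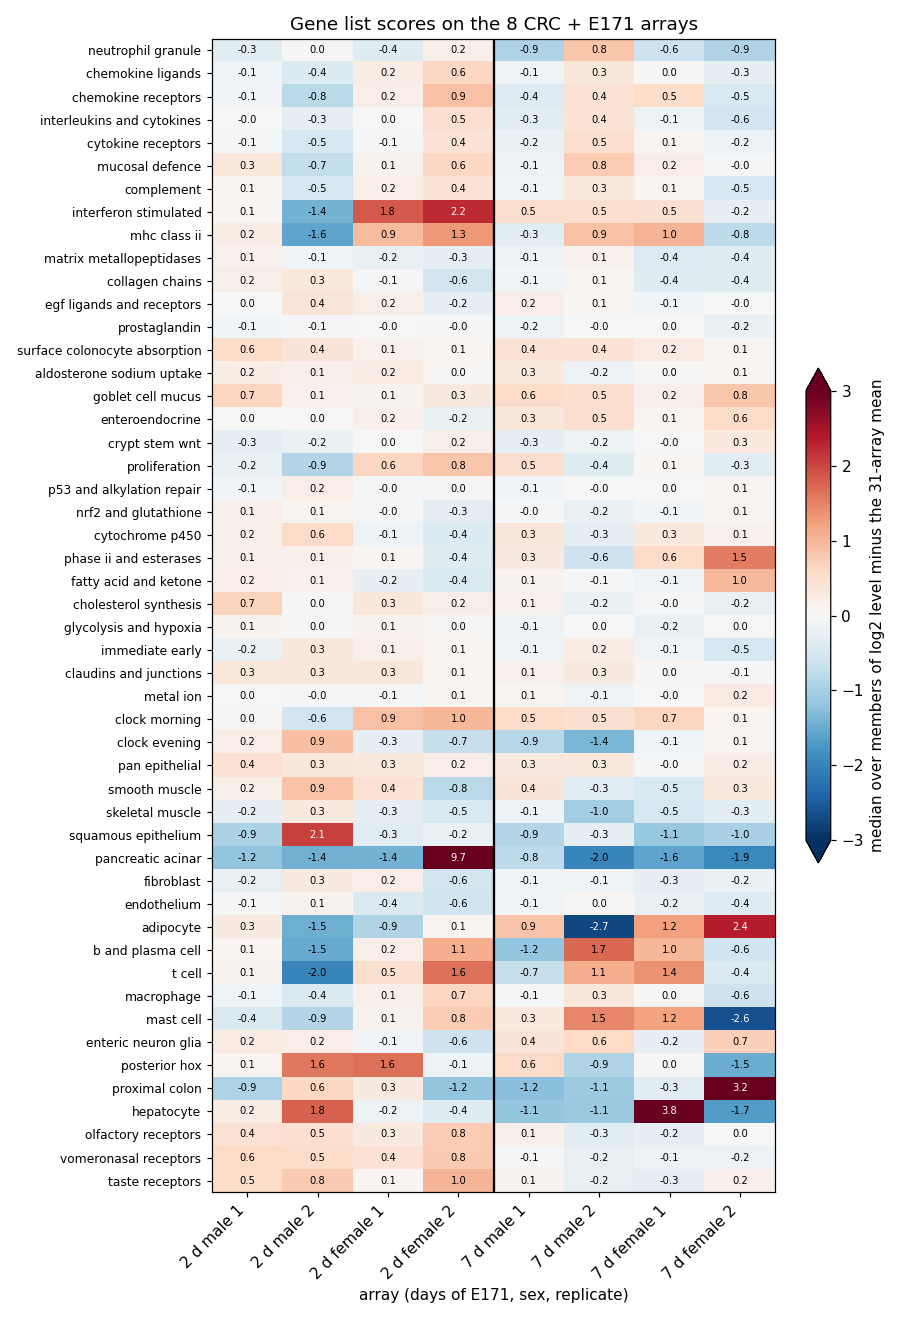
Scores of the gene lists on each of the 8 arrays, where a score is the median over members of the log2 level minus its mean over 31 arrays, with 2 day arrays left and 7 day arrays right of the line. Single arrays stand out, with a pancreatic score of 9.7 on female 2 at 2 days, and colonocyte scores lie between 0.05 and 0.56 throughout.

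Interferon-stimulated genes and clock genes stood at other levels in males than in females at 2 days, 2 arrays of each, which was not tested as such. Isg15, a ubiquitin-like protein induced by interferon, was at 3.27 and 0.9 in males and at 5.23 and 5.7 in females at 2 days. At 7 days it was at 4.01 and 3.74 in males and at 3.5 and 2.54 in females. The 2 day females thus stood above all other arrays, and the 31 interferon genes had scores of 1.84 and 2.23 on them against at most 0.52 elsewhere. The difference between the sexes in the 7 minus 2 day change was positive (males above females) with an unadjusted p-value under 0.05 in 30 of 31 genes, against 3.3% of all genes in either direction. Over the list the median change was 1.23 in males and -1.98 in females, 2 against 2 arrays each. Over both sexes it was -0.33, or 0.3 without both female 2 arrays and between -1.04 and 0.1 on leaving out single arrays. None of the 19797 genes had an adjusted p-value under 0.05 for this sex difference (limma over 16 groups, smallest 0.365), while 653 passed the unadjusted threshold. Leaving out single arrays gave between 0 and 31 such genes, with the 31 found without female 1 at 7 days, which carried liver transcripts. Here too a removal left 1 array in a group, assumed to vary like the others. T cell scores also differed between the 2 day arrays, at 0.11, -1.99, 0.48 and 1.65, and their part in the interferon values was not tested.

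Among the 5 genes with the smallest p-values toward males were the interferon-induced Trim30d, at a difference of 3.99 (SE 0.78, adjusted p = 0.439 by limma), Dtx3l at 2.42 (SE 0.44), Slfn5 at 2.06 (SE 0.42) and Ly6c1, a surface antigen of endothelium and leukocytes, at 2.72 (SE 0.57). Ccrl2, an atypical chemokine receptor, completed them at 2.41 (SE 0.51). Dtx3l was at -0.7 and -1.24 in males and at 0.9 and 0.88 in females at 2 days, and at -0.11, -0.1, -0.37 and -0.95 at 7 days. In the opposite direction stood 3 clock genes, a liver cytochrome and a mitochondrial carrier. Dbp, an output factor of the clock, was at 4.09 and 4.54 in males and at 0.74 and -0.12 in females at 2 days, and at 1.56, 1.31, 1.46 and 2.76 at 7 days. Its sex difference was -4.68 (SE 1.15, adjusted p = 0.439 by limma). Tef, a relative of Dbp, was at -3.34 (SE 0.75) and Per2 at -1.71 (SE 0.4). Cyp3a41a was at -4.29 (SE 0.93) and Slc25a47 at -1.38 (SE 0.34).

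The evening clock list had 10 of 14 genes with an unadjusted p-value under 0.05 for the sex difference, all with the change higher in females. CRC arrays, which share no sample with the CRC + E171 arrays, gave the same order at 2 days. Dbp was at 4.55 and 3.66 in CRC males and at 1.07 and 0.23 in CRC females, and at 7 days at 0.92, -0.3, 3.41 and 3.02. Interferon scores at 2 days were -0.18 and 1.01 in CRC males and 1.65 and 1.73 in CRC females. At 7 days they were -1.09 and -0.27 in CRC males and 0.59 and 0.6 in CRC females. The median interferon change in CRC mice was -1.28 in males and -1.1 in females. It was thus negative in both sexes, unlike that with E171. The hour at which each mouse was sampled is not given in the labels, and its part in the clock and sex differences was not tested.

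The change between 7 and 2 days was then set against that of CRC mice without E171. In CRC mice the DEG thresholds were passed by 2656 genes (13.4%) between the same days, and 0 genes passed the adjusted threshold (smallest adjusted p = 0.198 by limma). The test of the difference between both changes, CRC + E171 minus CRC, had 0 genes with an adjusted p-value under 0.05 (smallest 0.643) and 1373 (6.94%) with an unadjusted one.

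Marker lists of other tissues that were high on few arrays were furthest apart, with a median difference of -5.37 for pancreatic acinar, -3.39 for squamous and -2.93 for skeletal muscle genes. Among the other lists, colonocyte absorption genes had a median of -0.04 with E171 and -1.72 without, goblet cell genes 0.19 and -1.91, and pan-epithelial markers -0.15 and -1.42. Neutrophil genes had -0.17 with E171 and 2.15 without, collagen genes -0.11 and 0.71, and matrix metallopeptidases 0.01 and 0.77. In the test of the difference 10 of 28 colonocyte genes and 7 of 24 goblet cell genes had an unadjusted p-value under 0.05 with the change higher under E171.

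In CRC mice epithelial and neutrophil genes differed between days mostly on the 2 male arrays at 7 days, and the CRC change was not tested between the sexes. Car1 was at 5.3 and 3.65 in CRC males at 2 days and at -3.78 and -1.01 at 7 days, while CRC females were at 3.68 and 3.47 and then at 4.08 and 3.65. Neutrophil scores of the CRC 7 day arrays were 3.56, 5.3, -0.41 and -0.09. Both CRC males at 7 days thus had low epithelial and high neutrophil transcripts, while the 4 CRC + E171 arrays at 7 days had neutrophil scores of at most 0.83 and colonocyte scores of at least 0.09. CRC male 1 at 7 days also carried squamous and skeletal muscle genes, at scores of 7.43 and 7.37, and CRC male 2 pancreatic genes at 7.75, and their part in the change was not tested.

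Within males, a comparison chosen after the values had been seen, the change of CRC mice had 3467 genes (17.5%) with an adjusted p-value under 0.05 by limma over 16 groups, 2 arrays against 2. CRC + E171 males had 0 such genes, with 346 under the unadjusted threshold. The difference between both male changes passed the adjusted threshold in 557 genes (2.81%). Among them were 11 of 28 colonocyte genes, 8 of 24 goblet cell genes, 6 of 12 pan-epithelial markers, 8 of 22 claudin and junction genes and 10 of 43 cytochrome P450 genes, each with the change higher under E171.

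Cdh1, the adhesion molecule of epithelial junctions, was at 4.55 and 4.49 and then at 4.46 and 4.31 in CRC + E171 males, against 4.82 and 4.63 and then 1.8 and 2.41 in CRC males. The difference was 2.47 (SE 0.44, adjusted p = 0.0106 by limma). For Car1 it was 6.3 (SE 1.44, adjusted p = 0.0275), for Epcam, another epithelial adhesion molecule, 2.5 (SE 0.6, adjusted p = 0.0328), and for Tff3 5.45 (SE 1.35, adjusted p = 0.0392), all by limma. The neutrophil chemokine Cxcl1 differed the other way, at -7.73 (SE 1.75, adjusted p = 0.0272 by limma). Ptgs2, the inducible prostaglandin synthase, was at -3.78 (SE 0.88, adjusted p = 0.0299 by limma). For S100a8 the difference of -7.79 (SE 3.28) did not pass, with an adjusted p-value of 0.218 by limma. Leaving out single male arrays moved the count of 557 between 37, without CRC male 1 at 2 days, and 1920, without CRC male 2 at 7 days, and every one of the 8 removals moved it by over 1.5-fold. Each removal left 1 array in a group, which was assumed to vary like the other groups of the fit.

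In females the same difference had 0 genes with an adjusted p-value under 0.05 and 235 with an unadjusted one. The difference between the male and the female result had 0 genes past the adjusted threshold (smallest 0.0623 by limma) and 1669 past the unadjusted one. The male and female results were therefore not shown to differ.

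**Figure D5:**
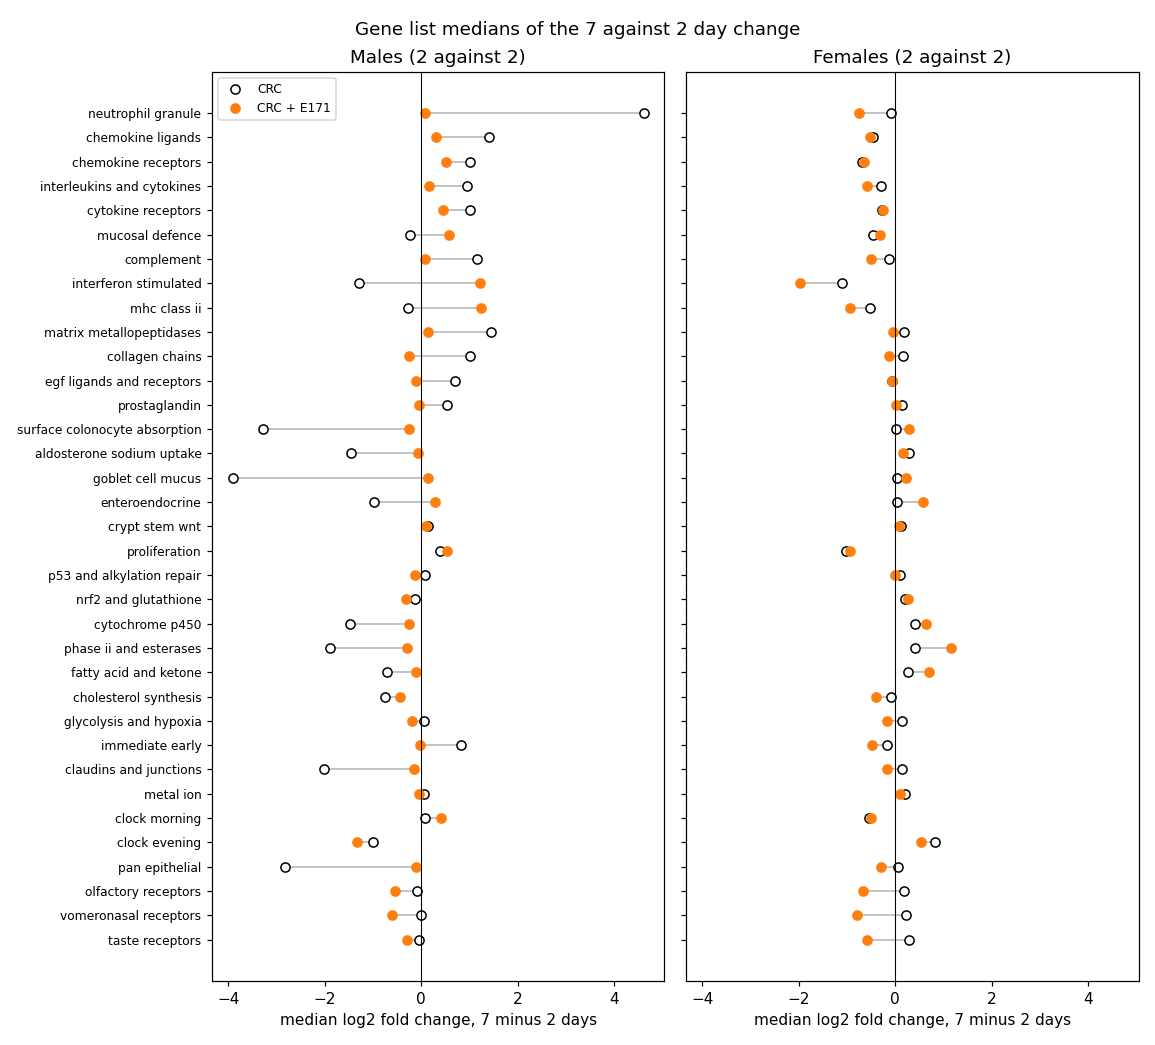
Median log2 fold change (7 minus 2 days) of gene lists in males and in females, 2 arrays against 2 each, for CRC + E171 (filled) and CRC (open), joined by a line. Of the lists of cell type and tissue markers only the pan-epithelial one is drawn. In males the goblet cell list is at 0.15 with E171 and -3.91 without, and in females at 0.23 and 0.04.

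The 5 genes with the smallest p-values in each direction of the difference test over both sexes had adjusted p-values of 0.643 by limma. Cystm1, a membrane microprotein, was at 1.2, 1.19, 0.76 and 0.93 and then at 1.48, 1.88, 0.76 and 1.46 with E171, against 1.58, 1.3, 0.72 and 1.28 and then -0.58, -0.41, 0.34 and 0.34 without. The difference was 1.67 (SE 0.4, adjusted p = 0.643 by limma), and CRC females too were lower at 7 days. Tmem62 differed by 0.82 (SE 0.21), Specc1l by 1.02 (SE 0.28), Ss18l1 by 0.93 (SE 0.26) and Tbccd1 by 1.11 (SE 0.32). On the lower side Tnnc1, the troponin C of slow muscle, differed by -1.45 (SE 0.35), Esrrb by -2.52 (SE 0.67), Fbxw20 by -1.81 (SE 0.48), Cdk15 by -1.43 (SE 0.38) and Il31ra, a receptor subunit for interleukin 31, by -1.48 (SE 0.4). Per1 differed by -1.25 (SE 0.35), since its CRC change was 0.45.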

How the data were processed

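The study hybridised colon RNA of BALB/c mice to one-colour Agilent SurePrint G3 mouse arrays. The authors deposited scanner intensities made with Feature Extraction 10.7.3.1, with its spatial and multiplicative detrending on per the file headers, on a probe grid of the mm9 build. The authors also deposited a matrix of normalized log2 values, 42568 probes, whose 31 columns each matched their own array best (lowest Spearman 0.994 across probes). Its array medians lay between 9.43 and 9.67, and how it was normalized is not given in the sources used here.

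From the processed intensities, log2 values minus the 75th percentile of each array's 56605 non-control probes were computed. Outlier spots were left out. The study's filter on missing values was followed with one substitution, in which spots not well above background or marked as outliers counted as missing. Probes stayed if at least 60% of arrays of 1 of the 8 groups held a value, with a mean log2 intensity of at least 4, which kept 42787 probes. Of these, 34344 were named through RefSeq tables (GRCm38.p6), and probes of a gene were averaged, giving 19797 genes. limma 3.58.1 in R 4.3.3 was fitted over all 8 groups and 31 arrays, with Benjamini-Hochberg adjustment. Contrasts by sex used 16 groups of treatment, day and sex. The scripts were tested on simulated data. The study states its fold threshold as a log2 value, while the thresholds here used a linear fold change of 1.5, with a log2 fold change of 1.5 as an alternative.

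Named genes were the 12 largest DEG in each direction whose arrays did not overlap and whose probe was well above background on all 4 arrays of a day, without receptors of smell, clones and predicted genes. Up to 4 DEG and the first 2 members of each gene list and the 5 smallest p-values in each direction of the contrasts on sex and on CRC mice were added. Hox genes, Nos1, Nts and Ciart were named after their values were seen. Some genes that the rule chose are not reported here. The comparison, the gene lists and this rule were chosen with earlier results of these data known, and the receptor lists and the tests within males after the values had been seen. Precision is limited by 4 arrays per group, or 2 within a sex.

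Alternatives were quantile normalization, normexp background correction (offset 50), no filter and a stricter one, the authors' values, the brightest probe per gene, other samples in the fit, sex, replicate, slide and scan day terms, eBayes trend, array weights, and leaving out each array. Replicate numbers did not pair the arrays, since same-numbered arrays of the same sex at 2 and 7 days had correlations of their deviations between -0.18 and 0.2. They did mark the slides, with replicate 1 on slides 1 to 4 and replicate 2 on slides 5 to 8.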

Additional observations from a re-analysis of the deposited data

Results flagged for a closer look

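Within a group and day of 4 arrays, 14 of 213 sets of values held one array far from the other 3 (Dixon's test), a criterion that flags about 1 in 20 groups by chance. Of the 14, 7 were on female 2 at 2 days, the array with pancreatic transcripts. These were the pancreatic acinar score at 9.7, the score of claudins and junctions at 0.06 against 0.32 to 0.35, Galnt6os at -0.95, Lnp1 at -1.94, Hoatz at -5, P2rx6 at -6.21 and Phactr3 at -4.09. Female 2 at 7 days, the array low in Hoxb13, held Il10 at -3.46, Klrh1 also at -3.46, and an interferon score of -0.24 against 0.46 to 0.52 on the other 3. The hepatocyte score was 3.82 on female 1 at 7 days, Phlda2 was at -2.62 on male 2 at 2 days, and Ces1d at -0.33 and Tnnc1 at -5 on female 1 at 2 days.

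The change between 7 and 2 days differed between CRC + E171 males and CRC males in 557 genes with an adjusted p-value under 0.05 by limma. The split of this test by sex was chosen after the values had been seen. Leaving out single male arrays moved the count between 37 and 1920, with 1 array left in a group that was assumed to vary like the others, and the test of males against females had 0 genes past the adjusted threshold (smallest 0.0623).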

How the results depend on the processing

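The count of 644 DEG moved to 232 (51 higher, 181 lower) with normexp background correction, 1269 with only the 8 arrays in the fit, 1210 with array weights, 106 at a log2 fold change of at least 1.5, and 423 without both female 2 arrays, which was added after seeing the data. With the replicate block it was 997 (106 higher, 891 lower), with a smallest adjusted p-value of 0.104 by limma. Replicate numbers did not pair the mice, but they did mark the set of slides. The third scan day alone gave 955, the other settings of the processing 465 to 899, and leaving out single arrays 481 to 702. The count of 0 adjusted genes held under these alternatives, except that the third scan day alone, also added later, called 1 gene, the interferon alpha gene Ifna5 (log2 fold change -1.4, SE 0.2, adjusted p = 0.00861 by limma, 2 arrays against 2), named after its value was seen. For the sex difference the count was 1 without a filter and 0 to 31 on leaving out single arrays. The difference from the CRC change stayed at 0 adjusted genes (smallest adjusted p-value 0.226 by limma, with array weights). The 557 genes of the male difference ranged from 395 to 661 over the processing and from 37 to 1920 on leaving out single male arrays.

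Of 40 named genes past the DEG thresholds, 4 passed under all 23 alternative settings applied to single genes (Klrh1, Il10, Esrrb and Fbxw20). The log2 fold change threshold of 1.5 was applied to the count only, and Fbxw20, at -1.48, would not pass it. Over all 920 values 761 kept the call, 159 lost it and 0 changed direction, and the causes were not tested. Signal over background limits the dim genes: 57 of 557 lower DEG were not well above background on any 7 day array.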

Other observations

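Other lists of the colon are given beside the all-gene median of -0.04. The 36 genes of the Nrf2 response and glutathione had a median log2 fold change of -0.04 and 0 DEG. The 29 crypt stem cell and Wnt genes had a median of 0.18 and 0 DEG, between 0.02 and 0.22 on leaving out single arrays. The 26 complement genes were at -0.11 (0.13 without both female 2 arrays), the 36 cytokine receptors at 0.12 (0.41 without both female 2 arrays, -0.1 without male 2 at 2 days), the 24 glycolysis and hypoxia genes at -0.17 with 19 lower means, and the 15 EGF ligands and receptors at -0.05, all with 0 DEG. Among the 22 metal ion genes the median was -0.03. MHC class II genes, which present antigen, had a median change of 1.25 in males and -0.93 in females, in the same directions as the interferon genes.

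Mast cell markers had a median of 0.49 with 1 higher DEG, Kit, and 1 lower. The lower one, Cma1, a mast cell chymase, was at -0.13, 0.05, 1.25 and 1.29 at 2 days and at 0.17, -1.41, 0.38 and -3.58 at 7 days, a log2 fold change of -1.73 (SE 0.73). It was -0.9 without female 2 at 7 days, and the call was lost without that array or any of 3 others, female 2 at 2 days among them. The list's score was -2.63 on female 2 and 1.47 on male 2 at 7 days, and the median was 1.32 without both female 2 arrays, -0.09 without male 2 at 7 days and -0.26 within the third scan day. Adipocyte markers had 9 of 10 higher means and 0 DEG, with scores from -2.74 on male 2 to 2.36 on female 2 at 7 days.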
